A study of Arabidopsis thaliana with 18 samples.

Results

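The 10 genes described here are Arabidopsis thaliana genes of salicylic acid defence, out of 33602 genes in the deposited table. They were chosen by locus identifier for their known roles, with earlier results of these data known. They are the defence marker genes PR1 (AT2G14610), PR2 (AT3G57260) and PR5 (AT1G75040), the synthesis gene ICS1 (AT1G74710), its activators SARD1 (AT1G73805) and CBP60G (AT5G26920), the signalling partners EDS1 (AT3G48090) and PAD4 (AT3G52430), the immune receptor gene SNC1 (AT4G16890) and the salicylic acid receptor gene NPR1 (AT1G64280). In warmth, averaged over the genotypes, PR1, PR5 and ICS1 were lower and SARD1 was higher, while PR2, EDS1, PAD4, SNC1, NPR1 and CBP60G did not pass the test. The PR1 and PR5 calls depended on how deviations shared by libraries of the same replicate number were treated. With a random block for the number within temperature both were lost. With genotypes averaged per number PR1 was lost (limma adjusted p = 0.054) and PR5 kept (0.0317). A fixed block kept both (0.0089 and 0.00705), but it gives a number the same effect at both temperatures. It therefore does not model deviations that differ between the temperatures. ICS1 and SARD1 were kept under all of these. None of the 10 passed the test between a mutant and the wild type at either temperature.

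Salicylic acid is a plant hormone that rises on attack by biotrophic pathogens. In Arabidopsis most of it is made by the isochorismate pathway, which ICS1 begins in the chloroplast. Receptors of the TIR class, SNC1 among them, signal through EDS1 and PAD4, after which SARD1 and CBP60G turn on ICS1, and NPR1 with TGA factors turns on PR1. Warm growth temperature is known from work on this plant to weaken defence of this kind, with SNC1, ICS1 and CBP60G among the genes described as temperature sensitive.

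RNA-seq was done on seedlings of the strain Columbia at day 7, in 3 genotypes, wild type, BBX18-/-BBX23-/- (the double mutant, bbx18 bbx23) and PIF4-/- (pif4), each at 22 °C and at 29 °C. Each of the 6 groups had 3 libraries, 18 in all. BBX18 and BBX23 belong to the B-box family of zinc finger proteins, PIF4 is a helix-loop-helix factor of growth in warmth, and the series title places the study in the growth of the hypocotyl in warmth. The labels name no pathogen, elicitor or hormone treatment, so the levels are those of untreated seedlings as far as the labels go. They give neither the alleles nor the number of plants per library, nor how long the seedlings were at each temperature, and whether the 3 libraries of a group came from separate cultures is not stated, so a p-value covers no more than the spread among these libraries.

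Values were deposited as FPKM, fragments scaled by gene length and by library size, so levels of different genes can be set side by side per length. Summed FPKM differed with temperature, from 909028 to 1162160 per library at 22 °C and from 744698 to 963730 at 29 °C. The steps between low values put the depth at roughly 14050000 to 26500000 reads. Reads of BBX18 remained in the double mutant at 22 °C, with a mean of 18.0 FPKM against 28.9 in the wild type, BBX23 was listed at 0 in all 18 libraries, and PIF4 in pif4 had means of 7.05 FPKM at 22 °C and 9.32 at 29 °C against 10.06 and 17.4 in the wild type. Gene-level values of this kind do not check the mutant labels. The photosynthetic markers RBCS1A, LHCB1.3 and LHCB3 were at high levels. Of 4 root markers, SHR, SCR and PHT1-1 were well above 1 FPKM in every library, while the root meristem marker PLT1 stayed under 1 FPKM. The root markers thus differed, and how much root RNA the libraries held was not tested.

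At 29 °C, libraries of replicate 1 and of replicate 2 deviated together across genotypes, with correlations over all tested genes of 0.702 and 0.732 between wild type and double mutant and of 0.467 and 0.694 between wild type and pif4. For replicate 3 they were 0.239 and -0.324. At 22 °C the wild type and pif4 also deviated together, at 0.502, 0.491 and 0.604 for replicates 1, 2 and 3. The double mutant at 22 °C had 0.131, -0.056 and 0.561 with the wild type and 0.228, 0.008 and 0.523 with pif4. Averaged warm calls of the members and of the listed immune genes are therefore given below also with such shared deviation taken into account. Between the temperatures of a genotype, the correlations for replicates 1, 2 and 3 were -0.03, -0.333 and -0.197 in the wild type. They were -0.24, -0.085 and -0.021 in the double mutant and -0.376, 0.003 and 0.182 in pif4. Warm calls of related gene copies outside these lists and of tissue markers are given from the fit without a block only.

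The 300 bases before the annotated start of PR5, ICS1 and SARD1 are shown because these members, called in warmth, moved in different directions, and because elements bound by factors named above can be looked for in them. They come from the RefSeq annotation of TAIR10.1, were found by locus identifier, and are written 5′ to 3′ on the strand of the gene. Capitals mark 3 short motifs on either strand, the W-box core TTGAC of WRKY factors, the TGA factor core TGACG, which overlaps the W-box core wherever TTGACG occurs, and GAAATTT, the element reported for SARD1 and CBP60G.
PR5, chr1:28177370-28177669, plus strand: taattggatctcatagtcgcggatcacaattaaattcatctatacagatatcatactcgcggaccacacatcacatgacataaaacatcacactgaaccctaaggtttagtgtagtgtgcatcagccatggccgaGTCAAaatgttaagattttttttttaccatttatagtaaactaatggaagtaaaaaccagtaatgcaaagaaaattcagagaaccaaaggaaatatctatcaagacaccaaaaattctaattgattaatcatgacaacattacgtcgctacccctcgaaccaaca
ICS1, chr1:28069995-28070294, plus strand: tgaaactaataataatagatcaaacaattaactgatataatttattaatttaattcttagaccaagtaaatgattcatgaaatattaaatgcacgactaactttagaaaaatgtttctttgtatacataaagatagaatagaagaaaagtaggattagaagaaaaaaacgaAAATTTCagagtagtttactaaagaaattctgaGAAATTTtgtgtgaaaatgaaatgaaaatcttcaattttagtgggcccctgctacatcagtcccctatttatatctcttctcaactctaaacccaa
SARD1, chr1:27749249-27749548, minus strand: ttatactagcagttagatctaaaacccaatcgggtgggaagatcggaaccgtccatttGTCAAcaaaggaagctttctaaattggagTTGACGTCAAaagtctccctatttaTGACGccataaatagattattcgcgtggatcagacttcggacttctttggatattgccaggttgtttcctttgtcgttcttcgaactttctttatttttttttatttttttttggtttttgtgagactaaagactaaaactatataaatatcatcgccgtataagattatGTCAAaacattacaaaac

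The SARD1 window held 4 W-box cores and 3 TGA cores, of which a W-box core and a TGA core on each strand overlap in the run TTGACGTCAA. The PR5 window held 1 W-box core and no TGA core, and the ICS1 window held 2 copies of GAAATTT and neither of the other motifs. Among 27438 protein-coding promoters of the same length, 50.4% held a W-box core, 21.3% a TGA core and 14.9% GAAATTT. Of the other members, PR2, EDS1 and SNC1 had 1 W-box core and 1 TGA core each, and PAD4, CBP60G and NPR1 had none of the motifs. These matches are descriptions of letters in a window, and a window without a motif says nothing of the factor.

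**Figure D1:**
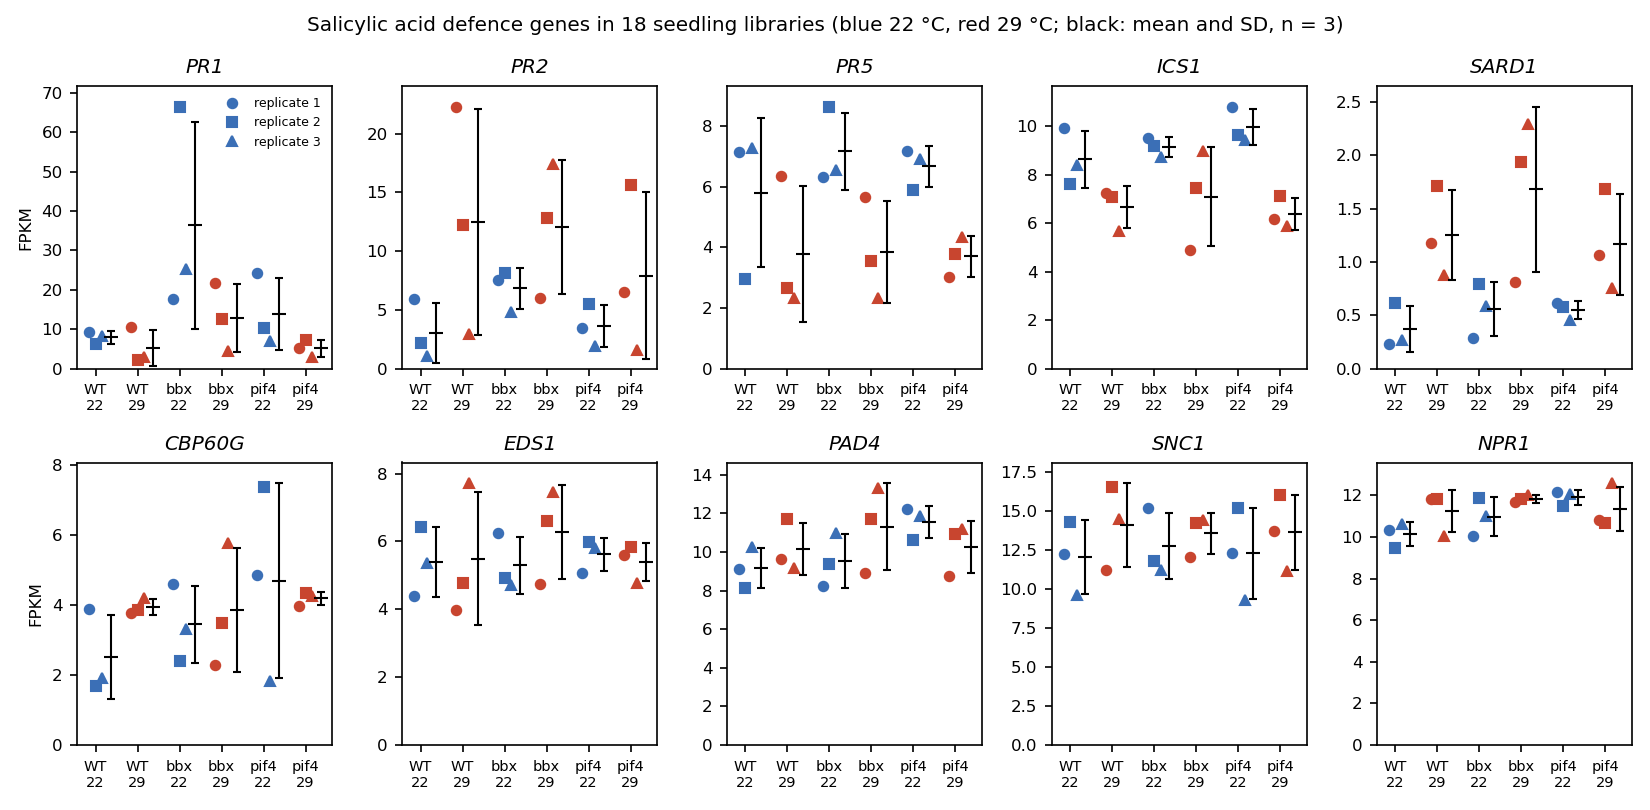
FPKM of each of the 10 genes (vertical axes, linear, starting at 0) in the 6 groups of genotype and temperature (horizontal axes; bbx is bbx18 bbx23, numbers are °C). Symbols are single libraries by replicate number, and black marks are the mean and SD over 3 libraries. PR1 reaches 66.5 FPKM in 1 double mutant library at 22 °C, SARD1 is higher in all libraries at 29 °C than at 22 °C of the same genotype, and NPR1 stays between 9.49 and 12.6 FPKM.

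PR1, a secreted protein that serves as the standard readout of salicylic acid signalling, was the most widely spread member, with a ratio of 32.4 between its highest and its lowest library. In the wild type at 22 °C its levels were 9.30, 6.20 and 8.29 FPKM in replicates 1, 2 and 3, and at 29 °C 10.4, 2.05 and 2.999. In the double mutant they were 17.6, 66.5 and 25.3 FPKM at 22 °C and 21.7, 12.5 and 4.36 at 29 °C. In pif4 they were 24.3, 10.3 and 7.02 FPKM at 22 °C and 5.16, 7.36 and 2.92 at 29 °C. The temperatures overlapped in each genotype, replicate 1 being the high library at 29 °C in the wild type and the double mutant. By group mean, the double mutant at 22 °C stood highest at 36.4 ± 26.3 FPKM (SD, n = 3), followed by pif4 at 22 °C with 13.9 ± 9.18, the double mutant at 29 °C with 12.9 ± 8.69, the wild type at 22 °C with 7.93 ± 1.58, and the wild type and pif4 at 29 °C with 5.16 ± 4.59 and 5.15 ± 2.22. No group in this order was separated from the next by more than the spread of their libraries.

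Warm response here means the difference in log2(FPKM + 1), 29 °C minus 22 °C, tested with limma and called at an adjusted p under 0.05 over 19116 genes. On this scale PR1 was lower at 29 °C by -1.13 ± 0.34 (SE) averaged over the 3 genotypes, with an adjusted p = 0.0162. Within genotypes the log2 difference was -0.77 (wild type), -1.44 (double mutant) and -1.17 (pif4), none of them called (adjusted p = 0.45, 0.125 and 0.225 by limma). The averaged call was lost when the shared deviation of replicate numbers was modelled as a random block, with an adjusted p = 0.0789, and when genotypes were averaged per number, with 0.054. In bulk seedlings, fewer cells of a type and less RNA per cell cannot be told apart, here and in the results that follow. The transcript of PR1 is 80.9% identical over 72.1% of its length to that of PRB1 (AT2G14580), a related gene that fell in warmth by a log2 difference of -1.11 ± 0.12 averaged over genotypes (limma adjusted p = 2.11e-06), and the sources used here do not give how reads shared by such copies were assigned.

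PR5, a thaumatin-like defence protein, spanned a narrower range, from 2.33 to 8.64 FPKM. Its levels in the wild type were 7.16, 2.95 and 7.28 FPKM at 22 °C and 6.37, 2.67 and 2.33 at 29 °C, so the temperatures overlapped. In the double mutant they were 6.31, 8.64 and 6.56 FPKM at 22 °C against 5.65, 3.57 and 2.33 at 29 °C, and in pif4 7.19, 5.89 and 6.93 against 3.01, 3.77 and 4.34. In both mutants every warm library lay below every library at 22 °C. The share of all genes without overlap between groups was not computed. Lack of overlap, here and below for ICS1, SARD1 and PR1 between genotypes, is therefore only a description of the libraries. The warm response averaged over genotypes was a log2 difference of -0.68 ± 0.18 with an adjusted p = 0.00794 by limma. The wild type, double mutant and pif4 values were -0.52, -0.80 and -0.71, with adjusted p = 0.316, 0.11 and 0.161. The averaged adjusted p was 0.0562 with the random block for replicate number and 0.0317, still called, with genotypes averaged per number.

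PR2, a beta-1,3-glucanase, had group means that were higher and not lower at 29 °C, without passing the test. Its wild-type levels were 5.92, 2.18 and 1.06 FPKM at 22 °C and 22.3, 12.2 and 2.97 at 29 °C. In the double mutant they were 7.57, 8.11 and 4.83 FPKM against 5.98, 12.8 and 17.4, and in pif4 3.42, 5.47 and 1.94 against 6.55, 15.6 and 1.61. The temperatures overlapped in all genotypes, and the group means at 29 °C, 12.5, 12.1 and 7.92 FPKM, were all above those at 22 °C, 3.05, 6.83 and 3.61. The averaged warm response was a log2 difference of 0.96 ± 0.38 with an adjusted p = 0.0581 by limma, just outside the threshold, and the responses of the single genotypes, 1.59, 0.65 and 0.65, were not called. Single libraries decided much of these values. With the low wild-type library at 29 °C, replicate 3, left out, the wild-type value was 2.30 and passed with an adjusted p = 0.0316 by limma, and with the high one, replicate 1, left out it was 1.03. The double mutant value ran from 0.35 without replicate 3 to 1.05 without replicate 1 of its warm libraries, and that of pif4 from 0.02 without replicate 2 to 1.35 without replicate 3. The average ran from 0.75 to 1.2 and passed in 4 of 18 such fits, those without replicate 1 at 22 °C or 3 at 29 °C of the wild type, or the warm replicates 1 of the double mutant or 3 of pif4.

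PR1 and PR2 also had the widest spread among the members between libraries of the same group. The within-group SD in log2(FPKM + 1) was 0.832 for PR1 and 0.934 for PR2, larger than in 99.1% and 99.4% of all tested genes. It was 0.432 for PR5 and 0.458 for CBP60G, larger than in 92.1% and 93.6%, and 0.091 for NPR1, which was larger than in 1.8%. Differences in PR1 and PR2 of the sizes seen here carried standard errors of 0.59 and 0.67 within a genotype, against 0.10 for NPR1 and 0.15 for PAD4.

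ICS1 encodes isochorismate synthase, the enzyme that makes isochorismate from chorismate on the way to salicylic acid. Its levels in the wild type were 9.91, 7.60 and 8.40 FPKM at 22 °C and 7.24, 7.09 and 5.67 at 29 °C. In the double mutant they were 9.50, 9.19 and 8.72 FPKM against 4.89, 7.44 and 8.96, and in pif4 10.8, 9.65 and 9.44 against 6.15, 7.10 and 5.87. The temperatures did not overlap in the wild type or pif4 and overlapped by 1 library, replicate 3 at 29 °C, in the double mutant. The averaged warm response was a log2 difference of -0.42 ± 0.09 with an adjusted p = 0.00224 by limma, and it stayed called with the random block, at 0.0243, and with genotypes averaged per number, at 0.0324. In pif4 alone it was -0.57 ± 0.16 with an adjusted p = 0.0288, against -0.33 and -0.36 in the wild type and the double mutant, which were not called. The pif4 call was kept in 13 of 18 fits that left out a single library, and it was lost without any 1 of the 3 pif4 libraries at 22 °C or without the pif4 replicates 1 or 3 at 29 °C. The difference between the pif4 and the wild-type response itself, a log2 value of -0.24 ± 0.23, was not called, with an adjusted p = 1.

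SARD1, a transcription factor of the CBP60 family that activates ICS1, was the lowest member. Its wild-type levels were 0.226, 0.617 and 0.264 FPKM at 22 °C and 1.18, 1.71 and 0.874 at 29 °C. In the double mutant they were 0.286, 0.789 and 0.588 FPKM against 0.814, 1.94 and 2.30, and in pif4 0.613, 0.574 and 0.455 against 1.06, 1.68 and 0.755. Every warm library was above every library at 22 °C of its genotype. These values correspond to roughly 7.61 to 32.2 reads per library at 22 °C and 35.7 to 133 at 29 °C, where most libraries were also deeper. SARD1 passed the low-value filter through 6 of its 9 warm libraries and none of the 9 at 22 °C, so a gene kept this way had to be higher in warmth.

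The averaged warm response of SARD1 was a log2 difference of 0.64 ± 0.13 with an adjusted p = 8.93e-04 by limma. Since the level was low, the added 1 FPKM shrinks this value, and with 0.1 FPKM added it was 1.3. The call also held without the filter on low values (adjusted p = 0.00297), with the random block (0.00961) and with genotypes averaged per number (0.0212). Within genotypes the log2 difference was 0.71 ± 0.22 for the wild type (adjusted p = 0.0423 by limma), 0.75 ± 0.22 for the double mutant (0.034) and 0.46 ± 0.22 for pif4 (0.196). Both calls were lost without the filter on low values (adjusted p = 0.0864 for the wild type and 0.0695 for the double mutant, limma) and with only the libraries compared (0.0731 and 0.076). The wild-type call was kept in 10 of 18 fits that left out a library, with values from 0.57 to 0.84, and was lost without replicate 1 or 3 at 22 °C or replicate 1 or 2 at 29 °C of the wild type, replicate 3 of the double mutant at 22 °C, or any 1 of the pif4 libraries at 22 °C. The call in the double mutant was kept in 14 of 18, with values from 0.58 to 1.01, and was lost without its replicates 1 or 3 at 22 °C or 2 or 3 at 29 °C. The smaller value in pif4 was set against the wild type in a test of the difference, which gave a log2 value of -0.25 ± 0.32 and an adjusted p = 1. The SARD1 gene overlaps GIP2 (AT1G73790) on the opposite strand by 640 bases, and GIP2 had means of 10.6 FPKM at 22 °C and 10.8 at 29 °C.

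CBP60G, a calmodulin-binding relative of SARD1 that also activates ICS1, had wild-type levels of 3.89, 1.70 and 1.93 FPKM at 22 °C and 3.77, 3.86 and 4.20 at 29 °C. In the double mutant it ran from 2.42 to 4.61 FPKM at 22 °C and from 2.30 to 5.78 at 29 °C, and in pif4 from 1.83 to 7.39 and from 3.99 to 4.35. The libraries of the wild type and pif4 were close together in warmth and spread apart at 22 °C. The averaged warm response was a log2 difference of 0.21 ± 0.19 with an adjusted p = 0.411 by limma, with a 95% interval from -0.20 to 0.63.

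EDS1, a lipase-like protein that carries signals from TIR receptors, ranged from 3.99 to 7.71 FPKM over the 18 libraries, and PAD4, which binds EDS1, from 8.13 to 13.3. EDS1 had an averaged warm response of 0.05 ± 0.11 on the log2 scale, with a 95% interval from -0.19 to 0.29, and PAD4 a value of 0.06 ± 0.09, from -0.12 to 0.25. Their adjusted p-values by limma were 0.771 and 0.611. EDS1 has a close copy, AT3G48080, 82.6% identical over 85.7% of the transcript, with mean levels of 1.27 FPKM at 22 °C and 1.21 at 29 °C, and the assignment of reads shared by the copies is unknown.

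SNC1, a TIR receptor whose activity in Arabidopsis is known to fall in warmth, ran from 9.34 to 16.6 FPKM, with an averaged log2 difference of 0.15 ± 0.11 and an adjusted p = 0.314 by limma. It lies in a cluster of related receptor genes, and 6 loci of it share 81.5% to 89.6% identity over at most 41.4% of the transcript. Of these, RPP4 rose by a log2 difference of 0.65 ± 0.09, RPP5 by 0.43 ± 0.12 and AT4G16900 by 0.36 ± 0.11 in the averaged warm response (limma adjusted p = 2.84e-05, 0.00825 and 0.0148), and 3 loci were not kept by the filter. NPR1, a salicylic acid receptor and coactivator, was the steadiest member, from 9.49 to 12.6 FPKM, a ratio of 1.32. Its averaged warm response of 0.06 ± 0.06 on the log2 scale had a 95% interval from -0.07 to 0.18 (limma adjusted p = 0.492).

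**Figure D2:**
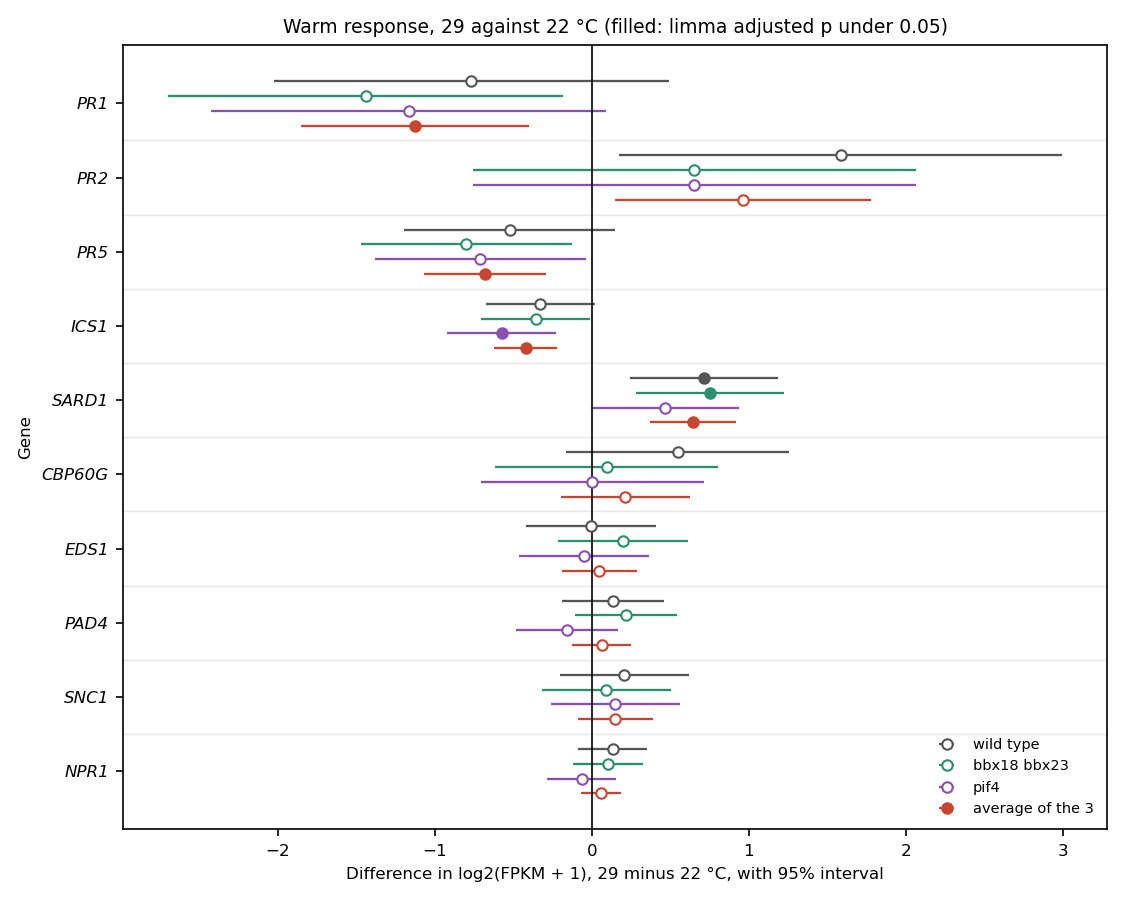
Warm response of each gene as the difference in log2(FPKM + 1), 29 minus 22 °C (horizontal axis), in the wild type, bbx18 bbx23, pif4 and their average. Points are limma estimates with unadjusted 95% intervals, filled where the adjusted p is under 0.05. The averages of PR1, PR5 and ICS1 lie at -1.13, -0.68 and -0.42 and that of SARD1 at 0.64, and the intervals of PR1 and PR2 are the widest.

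Counted over the members, 1 of 10 was called higher and none lower in the wild-type warm response, against 5.63% and 8.55% of all tested genes. In the double mutant 1 was called higher and none lower, against 5.52% and 8.06%, and in pif4 none higher and 1 lower, against 4.67% and 8.49%. For the average over genotypes 1 was higher and 3 were lower, against 17.3% and 21.3%. These shares are near the background, so the counts are no result about the 10 genes as a group. The member counted as higher was SARD1 each time. It passed the low-value filter only through warm libraries, so its direction was set by the filter. At an unadjusted p under 0.05, 2, 4, 2 and 5 members passed in the wild type, the double mutant, pif4 and the average, against 26.8%, 27.1%, 26.7% and 46.9% of all genes. The median log2 difference of the members was 0.13, 0.10, -0.06 and 0.06 in the same order, and that of all genes between -0.03 and 0.001.

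Between genotypes, PR1 in the double mutant stood nearest to a difference. At 22 °C its 3 libraries, at 17.6, 25.3 and 66.5 FPKM, were all above the 3 wild-type libraries, at 6.20 to 9.30, and the log2 difference was 1.86 ± 0.59 with a 95% interval from 0.60 to 3.12. Its unadjusted p of 0.00643 had rank 32 among 19116 genes, and the limma adjusted p was 1. Without replicate 2 of the double mutant, the 66.5 FPKM library, the difference was 1.32, and over all fits that left out a library it ran from 1.32 to 2.25. At 29 °C the double mutant libraries, at 4.36 to 21.7 FPKM, overlapped those of the wild type, at 2.05 to 10.4, and the log2 difference was 1.19 ± 0.59 (unadjusted p = 0.063, limma adjusted p = 1). With a library left out it ran from 0.71, without replicate 1 of the double mutant, to 1.76, without the warm wild-type replicate 1, and it was also 0.71 with replicate 2 at 29 °C left out of all genotypes.

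The other members differed less between the double mutant and the wild type. At 22 °C the log2 difference was 1.11 ± 0.67 for PR2 and 0.33 ± 0.32 for PR5, and at 29 °C 0.18 ± 0.67 and 0.06 ± 0.32. ICS1 differed by 0.08 ± 0.16 and 0.05 ± 0.16 on the log2 scale at 22 and 29 °C, with 95% intervals from -0.27 to 0.43 and from -0.29 to 0.40. In none of these did the libraries of the genotypes separate.

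In pif4 at 22 °C all 10 members were nominally above the wild type, with a median log2 difference of 0.23 against 0.04 for all genes, and none was called. The shares of all genes above the wild type or without overlap were not computed, so this is no result about the members as a group. PAD4 had 12.2, 10.6 and 11.9 FPKM in pif4 and 9.13, 8.13 and 10.2 in the wild type, without overlap, a log2 difference of 0.31 ± 0.15 (unadjusted p = 0.0616, limma adjusted p = 0.987). NPR1 had 12.2, 11.5 and 12.1 FPKM against 10.3, 9.49 and 10.6, also without overlap, a log2 difference of 0.21 ± 0.10 (unadjusted p = 0.0586, limma adjusted p = 0.987). These fits had no block, although same-numbered libraries of the 2 groups deviated together. With a block for the number within temperature, 0 members were called in this comparison. At 29 °C PAD4 and NPR1 overlapped between these genotypes, with log2 differences of 0.02 ± 0.15 and 0.01 ± 0.10, and the median over the members was 0.01. The comparisons of both mutants share the wild-type libraries, among them the low PR2 and CBP60G libraries at 22 °C.

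**Figure D3:**
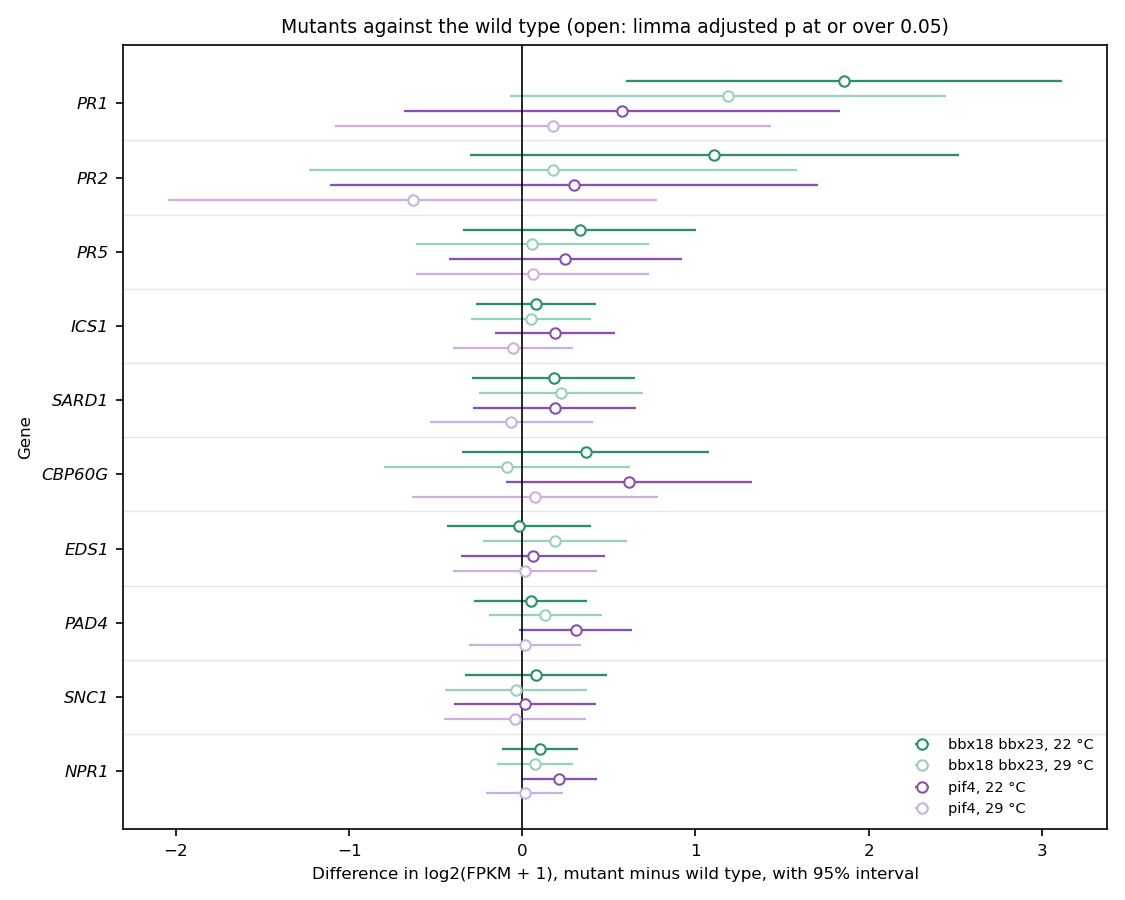
Mutant minus wild type as the difference in log2(FPKM + 1) (horizontal axis) for each gene, for bbx18 bbx23 and pif4 at 22 and at 29 °C. Points are limma estimates with unadjusted 95% intervals, and all are open because none passed an adjusted p of 0.05. PR1 in bbx18 bbx23 at 22 °C, at 1.86, lies farthest from 0.

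In counts, 0 of 10 members were called by limma between the double mutant and wild-type libraries at 22 °C, where 5 genes or 0.0262% of all were called, and 0 at 29 °C, against 0.0157%. For pif4, 0 members were called at 22 °C, against 0.0209% of all genes, and 0 at 29 °C, against 0.136%. At an unadjusted p under 0.05, 1 member (PR1) passed in the double mutant at 22 °C and 0 in the other genotype comparisons, against 1.3%, 1.1%, 3.24% and 3.3% of all genes in the same order. The warm response of the double mutant differed from that of the wild type for 0 members and 0% of all genes, and that of pif4 for 0 members and 0.0157% of all genes. At an unadjusted p under 0.05 these differences held 0 members, and 133 and 248 genes of all. These were comparisons in which few genes of any kind passed, and the intervals for PR1 and PR2 leave room for large differences.

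Other genes of the immune network, 68 in 10 groups by role, were read beside the members, and 59 were kept by the filter. In the averaged warm response 15 were higher and 9 lower, against 17.3% and 21.3% of all genes. With the random block for replicate number 9 were higher and 7 lower, all among those 24. Of all genes 26.2% were called in either direction with that block. The calls it removed were those of PBS3, TGA6, WRKY46, WRKY53, WRKY70, NHL10, RBOHD and PDF1.2A. With genotypes averaged per number 7 were higher and 5 lower, again all among those 24, against 19% of all genes called in either direction. In the single warm responses, 1 was higher and 4 lower (wild type, against 5.63% and 8.55% of all genes), 4 and 5 (double mutant, against 5.52% and 8.06%) and 2 and 6 (pif4, against 4.67% and 8.49%), and 0 were called by limma in any comparison of genotypes. At an unadjusted p under 0.05, 6 of the 59 passed between pif4 and the wild type at 22 °C, against 3.24% of all genes. In the other comparisons 0 passed, against 1.3% and 1.1% of all genes for the double mutant at 22 and 29 °C and 3.3% for pif4 at 29 °C.

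In salicylic acid synthesis and export, 1 of 8 genes rose and 4 fell. The fallen ones are the phenylalanine ammonia-lyases, which also feed lignin and flavonoids and open the other route to salicylic acid. PAL2 went from 133 ± 12.2 FPKM (SD, n = 3) to 45.2 ± 6.35 in the wild type, from 157 ± 5.95 to 49.0 ± 7.25 in the double mutant and from 130 ± 11.2 to 44.5 ± 3.35 in pif4. Its averaged log2 difference was -1.58 ± 0.08 (limma adjusted p = 3.82e-10), and PAL1, PAL3 and PAL4 had -0.81, -0.92 and -0.66. All 4 fell in both mutants, and PAL1, PAL2 and PAL3 in the wild type. PBS3, which conjugates isochorismate to glutamate and is named here after its value was seen, rose by 0.62 ± 0.18, a call lost with the random block and kept with genotypes averaged per number. PBS3, FMO1 and WRKY46, the latter described further on, passed the filter only through libraries at 29 °C, 7, 5 and 4 of 9, so that genes kept this way had to be higher in warmth.

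Of 5 turnover genes the glucosyltransferase gene UGT74F1 rose by a log2 difference of 0.48. Of 2 genes of N-hydroxypipecolic acid, another immune signal, FMO1 rose by 0.44 and AT5G52810 fell by 0.51. None of 5 CBP60 and CAMTA regulators was called, and AT5G57580, named after its value was seen, had an unadjusted p of 0.0402. Of 8 genes around EDS1, 3 rose: SAG101, the other EDS1 partner, by 0.36, the copine gene BON1 by 0.27 and BAP1, which binds it, by 0.56. Of 4 TIR receptor genes RPP4 and RPP5 rose, as given above. With genotypes averaged per number the calls of UGT74F1, FMO1, BON1 and RPP5 were lost.

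Among 10 kept genes of salicylic acid perception and TGA factors, TGA3 and TGA6 rose by log2 differences of 0.39 and 0.29, and TGA1 and TGA4, a separate clade, fell by 0.48 and 0.64. The TGA6 call was lost with the random block, and all 4 were lost with genotypes averaged per number. Of 5 kept WRKY genes 3 rose, WRKY53 by 0.85, WRKY70 by 0.48 and WRKY46 by 0.43. All 3 calls were lost with the random block, and those of WRKY70 and WRKY46 were kept with genotypes averaged per number. WRKY46 was at most 0.576 FPKM at 22 °C and 1.5 at 29 °C. WRKY53 was uneven in warmth, with 1.32, 2.998 and 8.54 FPKM in the wild-type libraries and 2.11, 2.84 and 8.93 in those of the double mutant, and WRKY70 had 7.37, 3.01 and 3.64 in the wild type. Of 7 genes of pattern-triggered immunity the flagellin receptor gene FLS2 rose by 0.85 and NHL10 by 0.66, and the oxidase gene RBOHD fell by 0.25. Of these FLS2 was kept with the random block and with genotypes averaged per number, and NHL10 and RBOHD were lost with both. Of 5 jasmonate and ethylene defence markers 1, the defensin gene PDF1.2A, fell by 0.82, a call also lost with both.

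**Figure D4:**
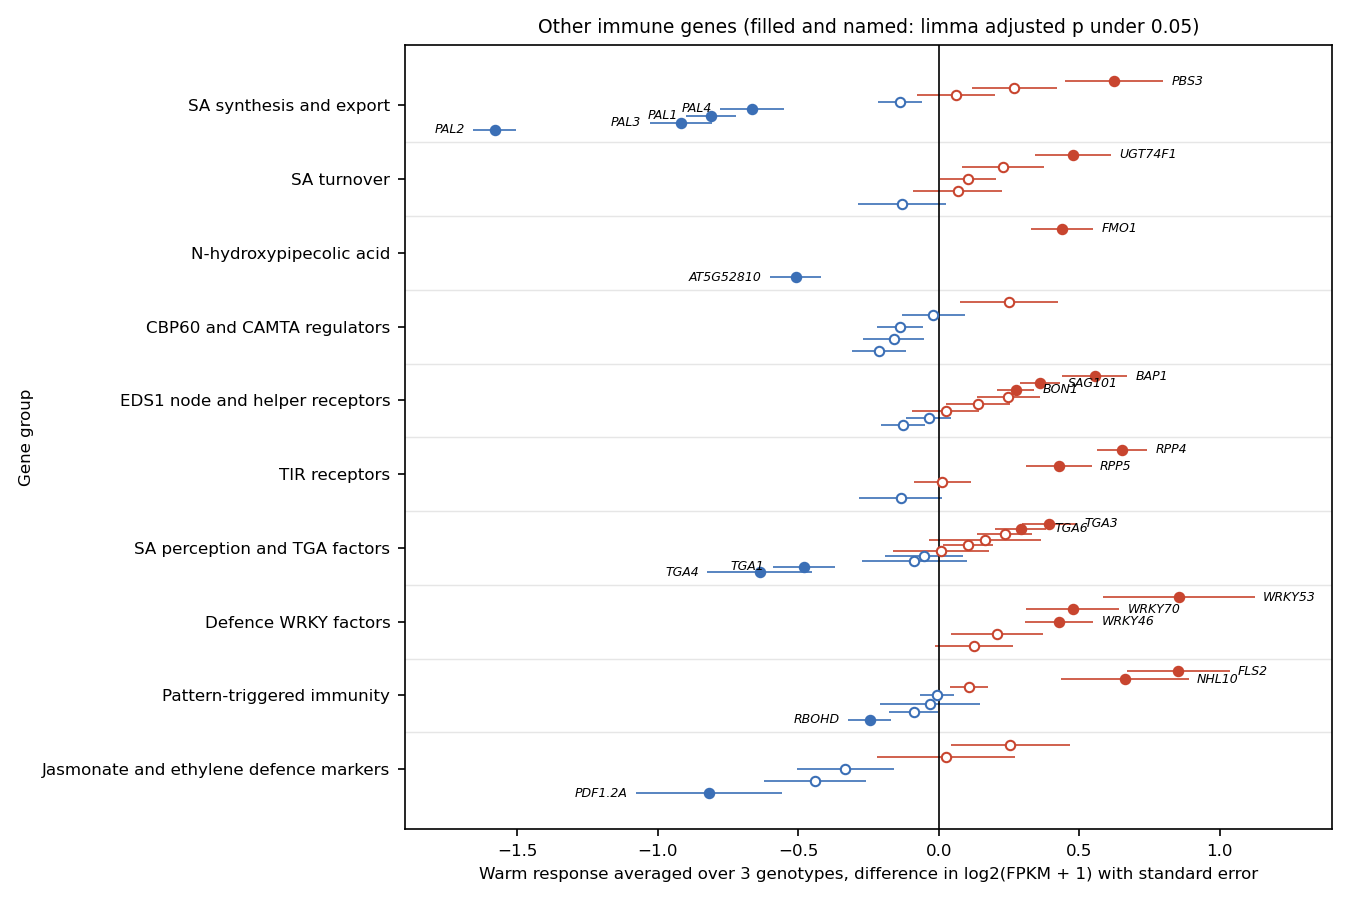
Averaged warm response, as the difference in log2(FPKM + 1) with its standard error (horizontal axis), of the 59 kept genes of the immune network by group. Filled and named points have a limma adjusted p under 0.05, red is higher and blue lower at 29 °C. PAL2 at -1.58 is farthest to the left, and WRKY53 and FLS2, both at 0.85, farthest to the right.

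Tissue markers moved with temperature as well. The summed level of the 3 photosynthetic markers ran at 22 and 29 °C from 63300 to 93492 and 25876 to 47101 FPKM (wild type), from 71276 to 86664 and 28384 to 32854 (double mutant) and from 71288 to 87251 and 28021 to 41345 (pif4), and 3 of 3 fell. The 4 root markers summed to 91.7 to 148 and 89.5 to 156 FPKM (wild type), 124 to 135 and 101 to 117 (double mutant) and 117 to 140 and 84.4 to 156 (pif4) at 22 and 29 °C, and 1 of 3 kept, SCR, fell by a log2 difference of 0.30. Of the 2 senescence markers SAG12 was listed at 0 in all but 1 library, and SEN1, which is also a dark-induced gene, rose by 2.25. The part of these shifts in the warm responses of the defence genes was not tested.

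Genes most like a member in pattern were taken as those with the highest Pearson r in log2(FPKM + 1) over the 18 libraries. These share the temperature groups and, in part at both temperatures, deviations by replicate number. For PR1 this was ROXY1, at 0.83, and at 0.746 for deviations from the group means. For PR2 it was RLP41, at 0.901 and 0.943, followed by TAT3 at 0.865 and 0.926. For PR5 it was AT2G47010, at 0.92 and 0.891, and for ICS1 LPR2, at 0.908 and 0.793. For SARD1 it was AT5G52760, at 0.92 and 0.742, followed by GRX480 at 0.911 and 0.76. For CBP60G it was AT1G66090 (0.846 and 0.845), for EDS1 AT3G51950 (0.861 and 0.882), for PAD4 AT5G45410 (0.864 and 0.906), for SNC1 PIP5K2 (0.895 and 0.946) and for NPR1 PUT2 (0.829 and 0.871). No member was among the 3 genes most like another member.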

How the data were processed

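Seedling RNA, extracted with Trizol, went into TruSeq libraries, per the labels. The authors deposited 1 table of FPKM per gene, with 18 columns, 1 per library, and 0 columns without a sample. Bowtie 0.12.2 and the build mm8 are named in the submitters' processing notes. That build is of the mouse, while the rows are Arabidopsis loci, so genome, annotation, counter and counting by strand remain unknown: none is given in the sources used here.

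From the deposited FPKM, log2(FPKM + 1) was computed, and a floor of 1 FPKM reached in 3 or more of 18 libraries kept 19116 genes and all 10 members. The package limma 3.58.1 (R 4.3.3) fitted a model with a mean per group to the 18 libraries together (trended empirical Bayes variances), and 10 contrasts were tested 2-sided with Benjamini-Hochberg adjustment within each. The script was tested on simulated data. The members and lists were chosen with earlier results of these data known. Of the lists, at most 4 called genes of smallest p are named. Motifs were searched in TAIR10.1, in which 32835 identifiers were found, and copies with blastn 2.17.0. The upstream sequence of PR1 is not reported here. Replicate numbers are given in the labels. Deviations correlated above 0.1 for all 3 numbers between pif4 and the wild type at 22 °C and at 29 °C between the double mutant and the wild type, and not between any other pair of groups. Alternatives were a pseudocount of 0.1, no filter, size factors (0.962 to 1.044), only the libraries compared, no variance trend, replicate blocks and leaving out libraries. The random block and the means per replicate number were added after seeing the data.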

Additional observations from a re-analysis of the deposited data

How the results depend on the processing

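Of 900 member values under settings other than leaving out a single library, 881 stayed on the same side of the threshold, 14 lost and 5 gained a call and 0 reversed. Of 1800 with a library left out, 17 lost and 5 gained a call and 0 reversed. Reversed means a change of sign where either fit called the value. Changes of sign among values not called were counted as the same. An example is the warm response of CBP60G in pif4, from -0.43 to 0.35 with a library left out. Most values were not called in the main fit, so most of those counted as the same had no call to lose.
Members called fell from 1 to 0 in the wild type, the double mutant and pif4 with no filter on low values and with replicate 2 at 29 °C left out of all genotypes, from 1 to 0 in pif4 with size factors, and from 1 to 0 in the wild type and the double mutant with only the libraries compared, where fewer samples give the spread. With only the libraries compared, pif4 lost ICS1 (adjusted p = 0.0574 by limma) and gained PR5 (0.0457). With replicate 1 at 29 °C left out, 2 members were called in the wild type (PR5 and SARD1) and 3 in the double mutant (PR1, PR5 and SARD1). With no filter the averaged PR1 call had an adjusted p of 0.0531 by limma. With the random replicate block (consensus correlation 0.315) 2 of the 4 averaged calls, ICS1 and SARD1, were kept. Leaving out 1 library gave 0 to 2 members in the wild type, 0 to 1 in each mutant, and 4 to 5 in the average, where the 4 calls were kept in 18 of 18 fits.
The fixed replicate block gives each number the same effect at both temperatures. It gave 1, 1, 1 and 5 members called in the wild type, double mutant, pif4 and averaged warm responses. Newly called in the average was PR2 (limma adjusted p = 0.0282). PR2 was not called with the random block (0.181) or with genotypes averaged per number (0.114), and no block changed a member's call between genotypes.
Over all genes, only the libraries compared gave 1289 calls in place of 2711 in the wild-type warm response, 1096 in place of 2515 in pif4, 1 in place of 5 and 0 in place of 3 in the double mutant against the wild type at 22 and 29 °C, and 6 in place of 26 for pif4 and the wild type at 29 °C. With no filter the double mutant at 22 °C had 3. With replicate 1 or 2 at 29 °C left out, the double mutant at 29 °C had 0 and pif4 had 14 or 13. The replicate block within temperature gave 13 in place of 4 in pif4 at 22 °C and 47 at 29 °C. The difference of the pif4 and wild-type responses had 3 calls, 0 with the pseudocount of 0.1, 5 with the replicate block and 8 with the block within temperature. Means per replicate number gave 3636 in place of 7391 in the averaged response. Leaving out 1 library gave 1519 to 2978 in the double mutant, 1524 to 2539 in pif4, 1 to 6 in the double mutant at 22 °C, 15 to 29 in pif4 at 29 °C and 0 to 6 in the pif4 difference. Beyond the sample and gene numbers named, the cause was not tested.
Depth limits SARD1 most, with roughly 7.61 reads in its lowest library.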
